A study of Homo sapiens with 12 samples.

Results

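Glycolysis turns glucose into pyruvate and lactate, and the hypoxia-inducible factors (HIF) are the transcription factors that raise many of its enzymes when oxygen is short. The 39 genes described here are a hand-picked list of HIF subunits, oxygen sensors, HIF target genes, glucose transporters, glycolytic enzymes, lactate-handling proteins and collagen hydroxylases, found by symbol among the 50868 genes of a table of RNA-seq read counts. All 39 had enough counts to be tested. The cells were MG63, an established line from a human osteosarcoma, grown in DMEM with 10% FBS and antibiotics. In the compound experiment, cells received anticarin-beta at 1 µM or its vehicle for 18 hours. In the siRNA experiment, a CCT4-specific siRNA or the Allstar control siRNA was introduced and cells were collected after 2 days. CCT4 is a subunit of the ring-shaped chaperonin on which cytoskeletal proteins fold. Each of the 4 groups held 3 libraries. One cell line was used throughout, and the sources used here do not give the oxygen level of the cultures. Nothing says that replicates were separate cultures. The p-values then measure only the spread between these libraries, which may be technical.

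In cells with enough oxygen, prolyl hydroxylases of the EGLN family mark the HIF alpha subunits HIF1A and EPAS1 for destruction. When oxygen falls the alpha subunits persist, pair with ARNT and bind short DNA elements with the core ACGTG or GCGTG near genes for glucose uptake, glycolysis, blood vessel growth, mitophagy and collagen modification. The alpha subunits are controlled mainly as proteins, so their mRNA is not a measure of HIF activity. Cancer cells often run glycolysis at a high rate even in oxygen.

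Library totals ranged from 13393750 to 17492095 counts, and levels are given in CPM, the count of a gene scaled to a common library size, after TMM scaling, which adjusts for differences in library composition. The libraries labelled CCT4 siRNA had 206 ± 9.17 CPM of the targeted mRNA, and those with control siRNA had 177 ± 14.4 CPM (mean ± SD, 3 libraries each, edgeR adjusted p = 0.129). The target was thus no lower, and directions in that experiment refer to the labels alone. Mitochondrially encoded genes took 1.16% to 1.36% of counts with anticarin-beta and 4.74% to 5.10% with vehicle. They took 1.23% to 1.25% in the libraries labelled CCT4 siRNA and 2.08% to 2.30% with control siRNA, and their part in the results below was not tested. Of 10 mesenchymal and osteoblast-lineage markers 8 averaged at least 1 CPM in every group (VIM at 3309 ± 651 CPM with anticarin-beta and 2777 ± 553 CPM with vehicle), while POSTN and BGLAP were low. Of the 9 such markers tested, 7 were called higher and none lower with anticarin-beta (median log2 fold change 0.41), and 4 were called higher and none lower in the libraries labelled CCT4 siRNA (median 0.34). These are 77.8% and 44.4% higher, beside 34.9% and 10.7% of all genes tested. The part of these markers in the results was not tested. Of 9 markers of other cell types 7 averaged under 1 CPM in every group; the exceptions were PTPRC, with 1.79 ± 0.473 CPM with anticarin-beta and 0.868 ± 0.402 CPM with vehicle, and PECAM1, with 2.20 ± 0.512 CPM with anticarin-beta and 4.51 ± 0.544 CPM with vehicle. In bulk RNA, fewer cells with a transcript and less of it per cell cannot be told apart.

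One library stood apart, for these genes and also in its spread from its replicates over the whole table. Vehicle replicate 1 was the lowest of the vehicle libraries for 28 of the 39 genes and for all 9 HIF target genes of other function (VEGFA, ADM, CA9, CA12, NDRG1, ANKRD37, BNIP3, BNIP3L and DDIT4), whereas it was lowest for 38.4% of all genes tested. It was also the lowest for 28 of 31 further HIF targets outside the list. Its median deviation from the vehicle mean was -0.58 on the log2 scale over the 9 targets and -0.07 over the glycolysis genes. Its level relative to the mean of the other vehicle libraries was between 0.472 (NDRG1, a stress-response protein) and 0.763 (ADM) for the 9 targets. Calls of the compound comparison that change without this library are given with and without it. It belongs to neither siRNA group. Omitting it still changes the shared estimate of the spread, the scaling and the genes tested (18242 in place of 17717) in the siRNA comparison. The calls that change there and in the difference between the responses are named with those results.

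**Figure D1:**
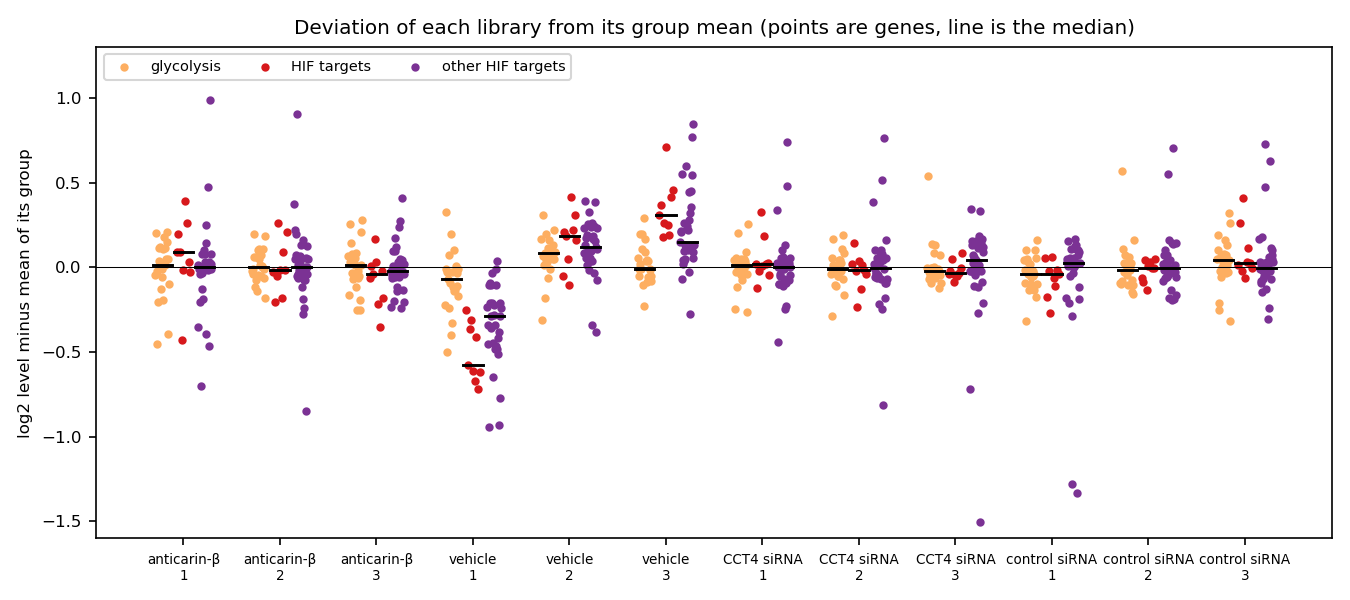
Difference between each library's log2 level and the mean of its group, for the glycolysis genes (orange), the 9 HIF target genes of other function (red) and 31 further HIF targets (purple). Each point is a gene and black lines are medians; in vehicle replicate 1 the red median lies at -0.58 and the orange one at -0.07.

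Stretches upstream of 6 genes that carry the main results are shown because their HIF core content can be set beside how they moved. They come from the RefSeq promoter table (build GRCh38.p14), are limited to bases outside annotated exons, and run 5′ to 3′ on the strand of the gene, with every ACGTG or GCGTG match on either strand in capitals. PLOD2 (chr3:146161185-146161434, minus strand) held 3 matches, BNIP3 (chr10:131982014-131982173, minus strand) held 6 and DDIT4 (chr10:72273674-72273919, plus strand) held 3. The stretch of PFKFB3 at chr10:6202682-6202865 (plus strand), 1 of 2 start sites listed for the gene, held 2 matches, that of PFKFB4 (chr3:48556924-48556982, minus strand) held 1, and that of EGLN3 (chr14:33951082-33951324, minus strand) held none. The palindrome CACGTG counts once on each strand.
PLOD2: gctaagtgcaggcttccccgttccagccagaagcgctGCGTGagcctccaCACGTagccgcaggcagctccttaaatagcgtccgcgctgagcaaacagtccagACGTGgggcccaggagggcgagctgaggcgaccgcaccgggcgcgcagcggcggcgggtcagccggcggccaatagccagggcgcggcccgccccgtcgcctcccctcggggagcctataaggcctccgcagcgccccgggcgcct
BNIP3: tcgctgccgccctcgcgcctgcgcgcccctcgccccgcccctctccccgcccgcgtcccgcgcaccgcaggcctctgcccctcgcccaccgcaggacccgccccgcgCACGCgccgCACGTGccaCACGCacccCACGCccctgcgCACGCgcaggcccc
DDIT4: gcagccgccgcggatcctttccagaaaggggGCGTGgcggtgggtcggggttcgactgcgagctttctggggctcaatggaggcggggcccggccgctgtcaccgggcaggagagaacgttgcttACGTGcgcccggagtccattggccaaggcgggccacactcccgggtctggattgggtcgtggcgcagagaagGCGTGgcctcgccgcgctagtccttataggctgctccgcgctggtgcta
PFKFB3: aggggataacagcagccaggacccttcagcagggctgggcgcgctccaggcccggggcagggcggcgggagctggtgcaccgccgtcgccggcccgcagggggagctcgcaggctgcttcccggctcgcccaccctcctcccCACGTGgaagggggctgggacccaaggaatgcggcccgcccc
PFKFB4: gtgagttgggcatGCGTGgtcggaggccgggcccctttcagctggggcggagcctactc
EGLN3: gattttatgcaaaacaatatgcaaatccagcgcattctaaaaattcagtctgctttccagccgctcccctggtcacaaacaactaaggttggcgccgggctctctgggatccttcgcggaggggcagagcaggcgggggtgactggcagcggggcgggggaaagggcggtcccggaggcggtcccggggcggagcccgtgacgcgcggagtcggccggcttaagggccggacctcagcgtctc
Over the 250 bases upstream of the first listed start, 23 of the 35 members in the RefSeq table (65.7%) had at least 1 match, against 43.1% of 27305 genes. Both cores contain the letters CG, and the genes compared were matched neither for CG content upstream nor for expression. VEGFA, SLC2A3, NDRG1 and BNIP3L were named only. The genes with matches moved in both directions with anticarin-beta: PLOD2 and PFKFB3 rose, and BNIP3, DDIT4 and PFKFB4 fell, as set out below. A match is a description of the letters and not evidence of binding.

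With anticarin-beta the list split in opposite directions. Of the 39 genes 9 rose, 13 fell and 17 did not pass the test (edgeR quasi-likelihood test, Benjamini-Hochberg adjusted p under 0.05). The share called, 56.4%, stood beside 73.0% of all 17717 genes tested; 34.9% of all genes were higher and 38.0% lower, so a call alone sets no member apart. Without vehicle replicate 1 the split was 8 higher and 16 lower, and under library totals alone, which moved the median of all genes to -0.48, it was 4 higher and 25 lower. The median log2 fold change of the 39 genes was -0.07 and that of all genes was -0.06. For 9 genes every treated library lay above every vehicle library and for 13 every one lay below, beside 35.8% and 38.8% of all genes. More than 2-fold changes were seen for ADM, PFKFB3 and PLOD2, which rose, and for EGLN3, DDIT4, PFKFB4 and PFKL, which fell. These are 3 and 4 of the 39 genes, while 45.7% of all genes were called with a change over 2-fold (20.9% higher and 24.8% lower).

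**Figure D2:**
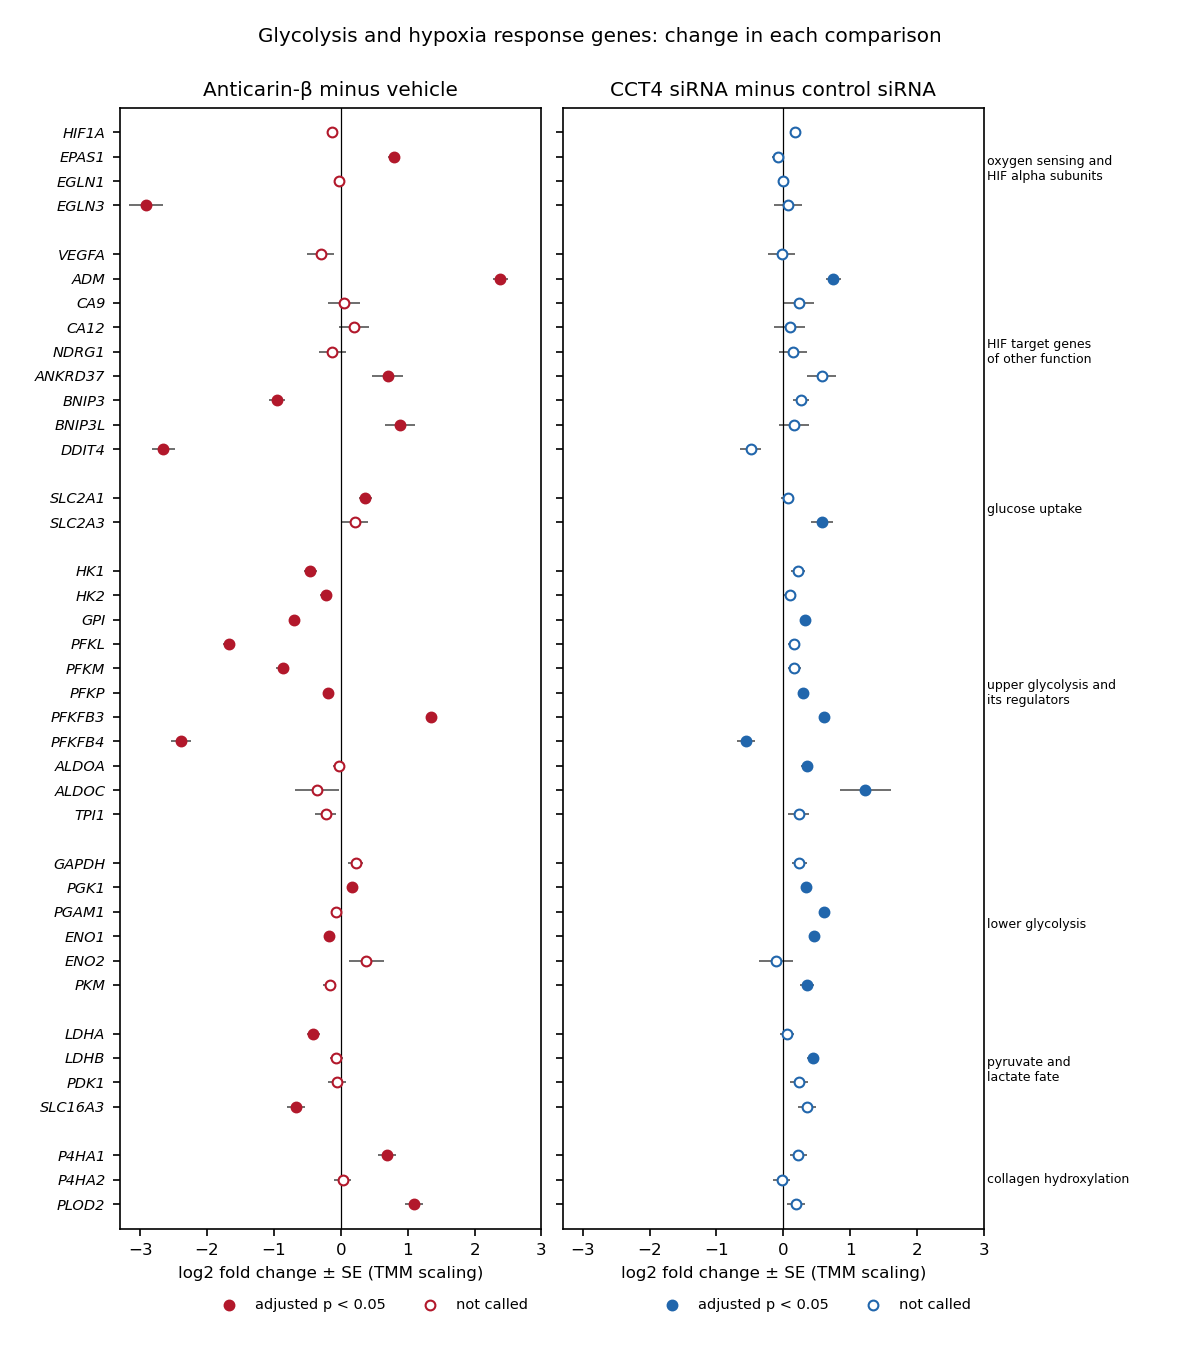
Log2 fold change ± SE of each of the 39 genes, grouped by role, for anticarin-beta minus vehicle (left, red) and for CCT4 siRNA minus control siRNA (right, blue). Filled points passed an adjusted p of 0.05; on the left 9 filled points lie above 0 and 13 below, on the right 12 lie above and 1 below.

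Among the HIF alpha subunits and oxygen sensors, anticarin-beta raised EPAS1 and lowered EGLN3. EPAS1, the HIF alpha subunit also called HIF-2 alpha, had 612, 610 and 627 CPM with anticarin-beta, against 324, 329 and 411 CPM with vehicle. The groups did not overlap, and the 3 treated libraries lay close together (log2 fold change 0.80 ± 0.09, SE, adjusted p = 3.4e-06). EGLN3, a prolyl hydroxylase that is itself a HIF target, had 3.43, 2.86 and 2.51 CPM with anticarin-beta, against 15.8, 30.7 and 20.02 CPM with vehicle. Every treated library was below every vehicle library, a 7.52-fold lower level (log2 fold change -2.91 ± 0.25, adjusted p = 2.9e-07). HIF1A, the other alpha subunit, averaged 360 ± 18.2 CPM with anticarin-beta and 396 ± 12.4 CPM with vehicle, without overlap of the groups. It did not pass the test (log2 fold change -0.14 ± 0.06, adjusted p = 0.051), but it passed as lower in 9 of 22 alternatives. Among these were upper-quartile scaling (-0.25, adjusted p = 0.0020), library totals (-0.56, adjusted p = 3.4e-06) and limma-voom (-0.14, adjusted p = 0.037). The omission of vehicle replicate 2 (-0.19, adjusted p = 0.016) was another. EGLN1, the main oxygen sensor of most cells, averaged 88.8 ± 1.80 CPM with anticarin-beta and 90.8 ± 7.79 CPM with vehicle (log2 fold change -0.03 ± 0.07, adjusted p = 0.68).

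HIF target genes did not move as a block with anticarin-beta: 3 of 9 rose, 2 fell and 4 did not pass. These are 33.3% higher and 22.2% lower, beside 34.9% and 38.0% of all genes. Without vehicle replicate 1, 3 rose and 4 fell, and under library totals 1 rose and 4 fell. ADM encodes adrenomedullin, a vasodilator peptide, and lies at chr11:10304680-10307397. It had 368, 339 and 330 CPM with anticarin-beta, against 54.8, 62.9 and 80.7 CPM with vehicle. All treated libraries exceeded all vehicle libraries, a 5.23-fold higher level (log2 fold change 2.39 ± 0.12, adjusted p = 1.5e-09). DDIT4, a stress-induced inhibitor of mTORC1 signalling, had 39.1, 34.6 and 25.5 CPM with anticarin-beta, against 153, 237 and 233 CPM with vehicle. Its level was 6.29-fold lower and the groups lay far apart (log2 fold change -2.65 ± 0.18, adjusted p = 2.5e-08), with an antisense gene, DDIT4-AS1, overlapping it on the other strand.

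The mitophagy receptors BNIP3 and BNIP3L went opposite ways. BNIP3 had 89.4, 80.8 and 81.5 CPM with anticarin-beta, against 125, 183 and 182 CPM with vehicle, a fall of 0.96 ± 0.12 on the log2 scale (adjusted p = 1.1e-05). BNIP3L had 93.1, 150 and 141 CPM with anticarin-beta, against 55.0, 70.7 and 81.9 CPM with vehicle, a rise (log2 fold change 0.89 ± 0.23, adjusted p = 0.0034). Under library totals alone BNIP3L lost its call (0.47, adjusted p = 0.071). Neither gene's groups overlapped. BNIP3 has 39 named pseudogenes in the table, which held counts equal to 12.0% of its own, so reads could have been split among the copies.

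ANKRD37, an ankyrin-repeat protein and HIF target, rose but at low counts (7.62 ± 1.08 CPM with anticarin-beta and 4.70 ± 1.52 CPM with vehicle; log2 fold change 0.70 ± 0.23, adjusted p = 0.015), and without anticarin-beta replicate 1 its adjusted p was 0.059. VEGFA, the angiogenic growth factor, had 450, 531 and 405 CPM with anticarin-beta, against 354, 607 and 746 CPM with vehicle. The vehicle libraries spanned the treated ones. The log2 fold change of VEGFA was -0.30 ± 0.20 (adjusted p = 0.19) with all libraries and -0.56 (adjusted p = 0.00067) without vehicle replicate 1. NDRG1, the most abundant of the 9 per kilobase of exon in every group, likewise had a log2 fold change of -0.12 ± 0.20 (adjusted p = 0.60) with all libraries and -0.41 (adjusted p = 4.5e-06) without vehicle replicate 1. The carbonic anhydrases CA9 and CA12, which control pH at the cell surface, had log2 fold changes of 0.05 ± 0.24 and 0.19 ± 0.23 and did not pass, and CA12 passed without vehicle replicate 3 (0.62, adjusted p = 0.00053).

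The upper steps of glycolysis, 11 of the 39 genes, held 7 of the 13 lower calls, while 1 gene rose and 3 did not pass. These are 63.6% lower and 9.09% higher, beside 38.0% and 34.9% of all genes. For 5 of the 11 every treated library lay below every vehicle library, beside 38.8% of all genes. PFKL and PFKM, the liver-type and muscle-type subunits of phosphofructokinase, the committed step of the pathway, both fell. PFKL had 66.4, 62.3 and 56.9 CPM with anticarin-beta, against 182, 209 and 202 CPM with vehicle, a 3.20-fold lower level (log2 fold change -1.68 ± 0.09, adjusted p = 3.4e-09). PFKM had 36.9, 34.1 and 27.3 CPM with anticarin-beta, against 64.0, 59.3 and 56.2 CPM with vehicle (log2 fold change -0.87 ± 0.10, adjusted p = 4.7e-06). The platelet-type subunit PFKP had 235, 210 and 208 CPM with anticarin-beta, against 224, 264 and 254 CPM with vehicle, and its groups overlapped (log2 fold change -0.19 ± 0.08, adjusted p = 0.043). Its call was lost without vehicle replicate 2 or 3 or anticarin-beta replicate 2 or 3 (adjusted p of 0.084 to 0.14). PFKM shares exon bases with SENP1 on the opposite strand.

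PFKFB3 and PFKFB4, related enzymes that make and break the sugar phosphate activating phosphofructokinase, moved in opposite directions. PFKFB3 had 86.7, 93.4 and 91.2 CPM with anticarin-beta, against 34.8, 34.0 and 37.7 CPM with vehicle, a 2.54-fold rise (log2 fold change 1.35 ± 0.07, adjusted p = 4.0e-09). PFKFB4 had 3.35, 4.15 and 4.09 CPM with anticarin-beta, against 15.9, 22.4 and 22.5 CPM with vehicle, a 5.24-fold fall (log2 fold change -2.39 ± 0.15, adjusted p = 2.0e-08). The groups of each gene lay apart. PFKFB4 shares exon bases with UCN2 on the same strand, so its counts are less certain.

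GPI, which isomerises glucose phosphate to fructose phosphate, fell to 329 ± 22.8 CPM with anticarin-beta, against 532 ± 28.6 CPM with vehicle (log2 fold change -0.70 ± 0.07, adjusted p = 7.2e-07). HK1 and HK2, the hexokinases that trap glucose in the cell, had log2 fold changes of -0.45 ± 0.10 (adjusted p = 0.0011) and -0.22 ± 0.09 (adjusted p = 0.045). The call of HK2 was lost in 13 of 22 alternative analyses. The aldolases ALDOA and ALDOC and the triose isomerase TPI1 did not pass, with log2 fold changes between -0.35 and -0.02, although TPI1 passed without anticarin-beta replicate 3 (-0.38, adjusted p = 0.045). Of the glucose transporters, SLC2A1 (GLUT1) had 284, 263 and 278 CPM with anticarin-beta, against 208, 220 and 212 CPM with vehicle, a rise under TMM (log2 fold change 0.37 ± 0.10, adjusted p = 0.0045) that was -0.05 when scaled by library totals alone. SLC2A3 (GLUT3) averaged 3.29 ± 0.75 CPM with anticarin-beta and 2.85 ± 0.42 CPM with vehicle and did not pass (log2 fold change 0.21 ± 0.20, adjusted p = 0.36).

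**Figure D3:**
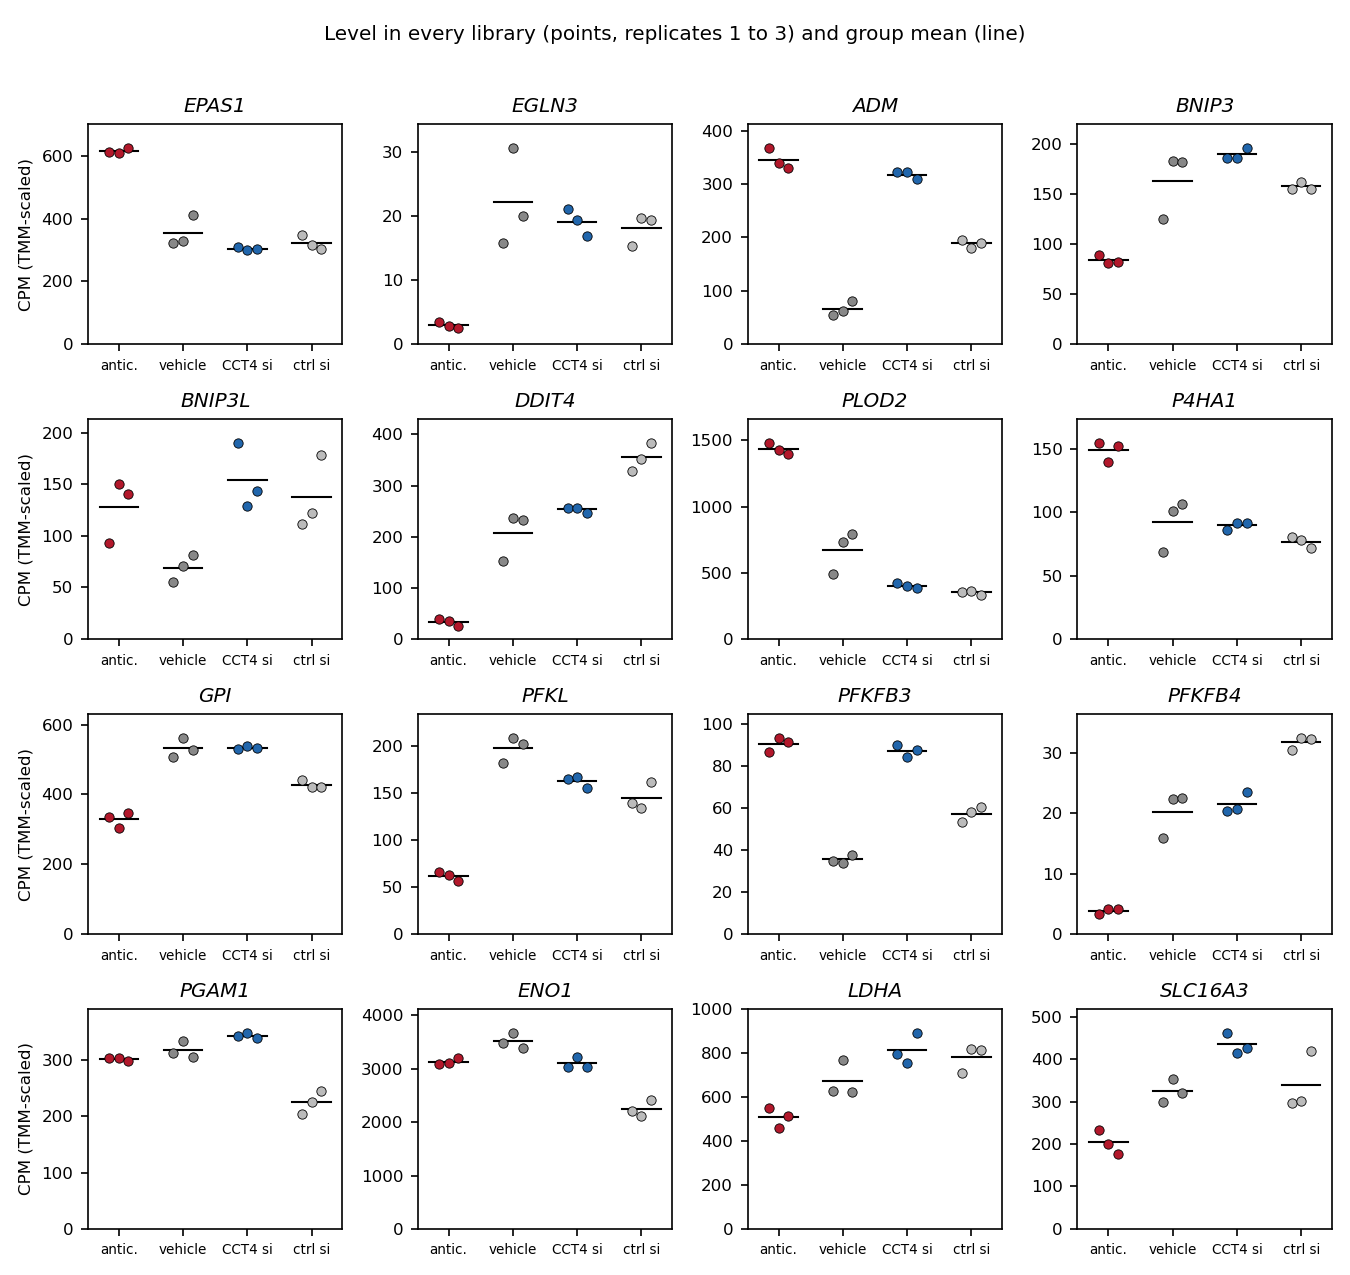
CPM of 16 genes in each library, with points for replicates 1 to 3 and lines for group means, in the order anticarin-beta, vehicle, CCT4 siRNA and control siRNA; every vertical axis starts at 0. ADM, PFKFB3 and PLOD2 lie higher with anticarin-beta than with vehicle in every library, and EGLN3, DDIT4, PFKL and PFKFB4 lie lower.

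Among the 6 genes of the lower steps of glycolysis, 1 rose and 1 fell with anticarin-beta, both by small amounts. Each is 16.7%, beside 34.9% of all genes higher and 38.0% lower. ENO1, the main enolase, had 3082, 3103 and 3194 CPM with anticarin-beta, against 3482, 3679 and 3383 CPM with vehicle, a fall of 0.17 ± 0.06 on the log2 scale (adjusted p = 0.029). That call was lost in 7 of 22 alternatives, among them RLE scaling (adjusted p = 0.15) and the omission of anticarin-beta replicate 1 or 2 (adjusted p = 0.072 and 0.077). PGK1, which makes the first ATP of the pathway, had 811, 783 and 758 CPM with anticarin-beta, against 635, 748 and 717 CPM with vehicle (log2 fold change 0.16 ± 0.07, adjusted p = 0.040). The call of PGK1 was lost without vehicle replicate 1 (0.09, adjusted p = 0.15) and in 16 of 22 alternatives. GAPDH, PGAM1, ENO2 and PKM did not pass, with log2 fold changes between -0.17 and 0.38. PGAM1 (-0.19, adjusted p = 0.027) and PKM (-0.28, adjusted p = 0.025) were called lower under upper-quartile scaling. Both were also called lower under library totals (adjusted p = 3.1e-05 and 0.00018). GAPDH, often used as a stable control gene, had 3223, 3884 and 4111 CPM with anticarin-beta, against 3139, 3227 and 3237 CPM with vehicle (log2 fold change 0.22 ± 0.11, adjusted p = 0.081). GAPDH was called higher without anticarin-beta replicate 1 (0.32, adjusted p = 0.020), under RLE (0.29, adjusted p = 0.031) and with DESeq2 (0.29, adjusted p = 0.026), and its log2 fold change was -0.19 under library totals.

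Of the genes that handle pyruvate and lactate, 2 of 4 fell and none rose, beside 38.0% of all genes lower and 34.9% higher. LDHA, the lactate dehydrogenase subunit that favours lactate formation, had 549, 459 and 514 CPM with anticarin-beta, against 628, 770 and 624 CPM with vehicle (log2 fold change -0.41 ± 0.10, adjusted p = 0.0031). SLC16A3 (MCT4), which exports lactate, had 234, 201 and 177 CPM with anticarin-beta, against 300, 354 and 320 CPM with vehicle (log2 fold change -0.67 ± 0.13, adjusted p = 0.00060). Neither gene's groups overlapped. LDHB, the other lactate dehydrogenase subunit, had 721, 845 and 801 CPM with anticarin-beta, against 938, 838 and 697 CPM with vehicle (log2 fold change -0.06 ± 0.09, adjusted p = 0.55), and it passed without vehicle replicate 3 (-0.18, adjusted p = 0.047). PDK1, a kinase that inactivates pyruvate dehydrogenase, had a log2 fold change of -0.05 ± 0.13 (adjusted p = 0.73) with all libraries and -0.24 (adjusted p = 0.016) without vehicle replicate 1.

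The collagen-modifying enzymes rose in 2 of 3 cases (66.7%, beside 34.9% of all genes higher). PLOD2, a lysyl hydroxylase that sets collagen cross-linking, had 1483, 1429 and 1399 CPM with anticarin-beta, against 490, 730 and 791 CPM with vehicle, a 2.14-fold higher level (log2 fold change 1.10 ± 0.13, adjusted p = 8.1e-06). P4HA1, the catalytic subunit of a collagen prolyl hydroxylase, had 155, 140 and 153 CPM with anticarin-beta, against 68.4, 101 and 107 CPM with vehicle (log2 fold change 0.69 ± 0.13, adjusted p = 0.00038). Under library totals the log2 fold change of P4HA1 was 0.28 (adjusted p = 0.059). All treated libraries exceeded all vehicle libraries for both genes. The isoform P4HA2 averaged 68.0 ± 7.27 CPM with anticarin-beta and 66.8 ± 12.7 CPM with vehicle (log2 fold change 0.03 ± 0.12, adjusted p = 0.86; -0.39 under library totals, a change of sign).

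Ratios of raw counts of related genes do not depend on how libraries are scaled, and 12 such ratios were compared in each experiment by exact permutation tests of 3 against 3 libraries. The smallest p-value that this design allows is 0.1 (two-sided), which became 0.171 after Benjamini-Hochberg adjustment over the 24 tests, so no ratio could pass. The count ratio of PFKFB4 to PFKFB3 was 0.0387, 0.0445 and 0.0449 with anticarin-beta, against 0.457, 0.660 and 0.597 with vehicle, a log2 difference of -3.73. In the siRNA experiment the same ratio was 0.226, 0.246 and 0.270 in the libraries labelled CCT4 siRNA, against 0.575, 0.561 and 0.535 with control siRNA, a log2 difference of -1.17. In both experiments the ratio was lower in every library of the treated group than in any library of its control group. In each experiment the groups did not overlap for 7 of the 12 ratios. Of all single genes, 35.8% lay wholly above and 38.8% wholly below vehicle with anticarin-beta. In the siRNA experiment 21.7% lay wholly above and 20.1% wholly below the control. Ratios of other gene pairs were not computed, so the count alone sets these pairs apart from no others.

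Anticarin-beta also shifted the balance of phosphofructokinase subunits. The count ratio of PFKP to PFKL was 3.55, 3.36 and 3.65 with anticarin-beta, against 1.23, 1.27 and 1.26 with vehicle (log2 difference 1.49), and that of PFKP to PFKM was higher by 0.69. The ratio of EPAS1 to HIF1A was 1.72, 1.61 and 1.82 with anticarin-beta, against 0.803, 0.863 and 1.02 with vehicle, a log2 difference of 0.94. The groups did not overlap in any of these ratios. In the siRNA experiment EPAS1 to HIF1A was 0.948, 0.871 and 0.874 in the libraries labelled CCT4 siRNA, against 1.20, 1.02 and 1.00 with control siRNA, a log2 difference of -0.26, without overlap. The ratio of BNIP3L to BNIP3 was 1.04, 1.85 and 1.73 with anticarin-beta, against 0.440, 0.387 and 0.449 with vehicle (log2 difference 1.82). EGLN3 relative to EGLN1 was lower by 2.84 and P4HA2 relative to P4HA1 was lower by 0.68 on the log2 scale with anticarin-beta.

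**Figure D4:**
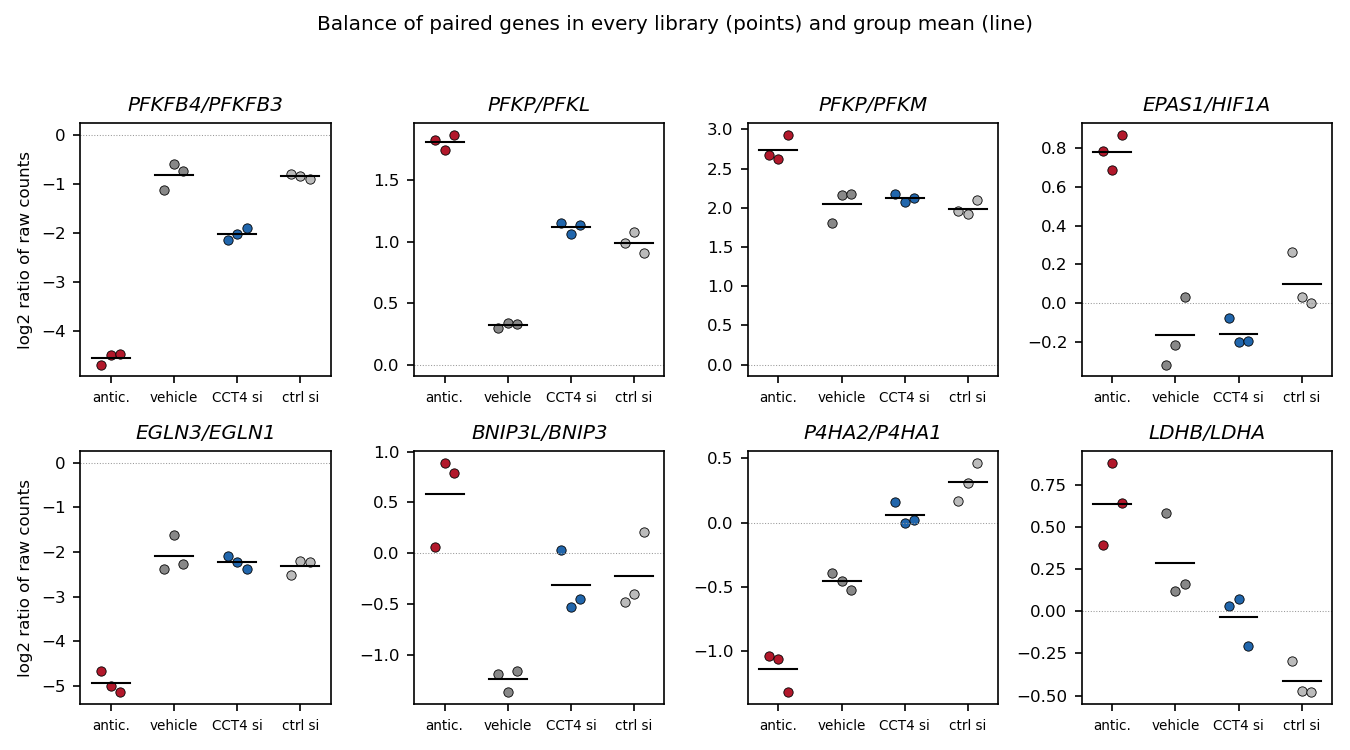
Log2 ratio of raw counts of 8 gene pairs in each library (points) with group means (lines), in the order anticarin-beta, vehicle, CCT4 siRNA and control siRNA; the vertical axes differ between panels. The PFKFB4 to PFKFB3 ratio differs by -3.73 between the compound groups and by -1.17 between the siRNA groups.

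Genes around the list, taken from pathway lists, give the setting of these changes, and their counts stand beside 73.0% of all genes called with anticarin-beta (34.9% higher and 38.0% lower). Of 15 other HIF regulators tested, 9 rose and 2 fell with anticarin-beta, with a median log2 fold change of 0.65 (8 and 5 under library totals). The coactivators EP300 (log2 fold change 1.86 ± 0.10, adjusted p = 2.7e-09) and CREBBP (log2 fold change 1.71 ± 0.08, adjusted p = 1.1e-09) rose, as did CITED2, which competes with HIF for them (286 ± 11.6 CPM with anticarin-beta and 84.0 ± 6.55 CPM with vehicle, log2 fold change 1.77 ± 0.09, adjusted p = 1.8e-09). ARNT2, an alternative partner of the alpha subunits, fell (9.65 ± 1.13 CPM with anticarin-beta and 48.5 ± 10.2 CPM with vehicle, log2 fold change -2.33 ± 0.14, adjusted p = 1.2e-08). Of 31 further HIF targets, 12 rose and 11 fell (11 and 12 without vehicle replicate 1). The vasoconstrictor peptide gene EDN1 had 204, 202 and 224 CPM with anticarin-beta, against 17.1, 19.0 and 18.8 CPM with vehicle (log2 fold change 3.52 ± 0.09, adjusted p = 1.4e-11), and the chemokine receptor gene CXCR4 rose by 2.55 ± 0.15 on the log2 scale (adjusted p = 8.6e-09). EFNA3, an ephrin, fell by 2.31 ± 0.30 on the log2 scale (adjusted p = 1.7e-05). RAB20, a small GTPase, had 1 count over the 3 anticarin-beta libraries, against 93 counts over the vehicle libraries, a ratio of 0.0168 after scaling (exact 95% interval 0.00042 to 0.0957, counting error only).

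A list of genes for pyruvate and lactate transport and for pyruvate dehydrogenase with its kinases and phosphatases moved in both directions with anticarin-beta: 8 of 15 tested rose and 5 fell, 86.7% called beside 73.0% of all genes. PDK4, a kinase that inactivates pyruvate dehydrogenase, had 388, 406 and 417 CPM with anticarin-beta, against 28.7, 22.9 and 23.4 CPM with vehicle, a 16.1-fold higher level (log2 fold change 4.01 ± 0.09, adjusted p = 4.0e-12). The related kinases PDK2 (log2 fold change -1.82 ± 0.24, adjusted p = 1.5e-05) and PDK3 (log2 fold change -2.29 ± 0.23, adjusted p = 1.6e-06) fell, while the phosphatases that reactivate the complex, PDP1 (log2 fold change 1.95 ± 0.08, adjusted p = 2.0e-10) and PDP2 (log2 fold change 2.19 ± 0.41, adjusted p = 0.00038), rose. DLAT, a catalytic subunit of the complex, had 17.8, 19.4 and 16.4 CPM with anticarin-beta, against 70.5, 59.0 and 62.9 CPM with vehicle (log2 fold change -1.84 ± 0.15, adjusted p = 2.1e-07). In the pentose phosphate pathway, which branches off after hexokinase, 7 of 8 genes fell and none rose, beside 38.0% of all genes lower, with H6PD (log2 fold change -1.08 ± 0.13, adjusted p = 9.4e-06), PGLS (log2 fold change -0.90 ± 0.11, adjusted p = 1.1e-05), RPIA (log2 fold change -0.80 ± 0.14, adjusted p = 0.00018) and PGD (log2 fold change -0.69 ± 0.08, adjusted p = 3.4e-06) furthest. Of 9 further glycolysis genes tested 3 rose and 4 fell, among them the hexokinase-like HKDC1 (log2 fold change 3.34 ± 0.30, adjusted p = 4.6e-07) and the phosphoglucomutase PGM2 (log2 fold change -1.98 ± 0.12, adjusted p = 1.4e-08).

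In the siRNA experiment the calls were nearly all upward, and small. In the libraries labelled CCT4 siRNA 12 genes were higher, 1 was lower and 26 did not pass. The share called was 33.3%, beside 19.7% of all genes; 10.7% of all genes were higher and 9.04% lower. The median log2 fold change was 0.23 for the 39 genes and 0.01 for all genes. For 24 genes the libraries labelled CCT4 siRNA all lay above the control siRNA libraries, and for 2 all lay below, beside 21.7% and 20.1% of all genes. Under library totals alone the median was 0.10 for the 39 genes and -0.12 for all genes, with 7 genes higher and 2 lower.

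Enzymes of glycolysis made up 9 of the 12 higher calls. They were 5 of the 11 genes of the upper steps (45.5%) and 4 of the 6 of the lower steps (66.7%), beside 10.7% of all genes. PGAM1, phosphoglycerate mutase, had 342, 349 and 338 CPM in the libraries labelled CCT4 siRNA, against 205, 225 and 246 CPM with control siRNA (log2 fold change 0.61 ± 0.07, adjusted p = 0.00014). ENO1 had 3043, 3223 and 3036 CPM in the libraries labelled CCT4 siRNA, against 2217, 2119 and 2409 CPM with control siRNA (log2 fold change 0.46 ± 0.06, adjusted p = 0.00045). Each gene's groups lay apart. PFKFB3 had 90.1, 84.1 and 87.4 CPM in the libraries labelled CCT4 siRNA, against 53.2, 58.0 and 60.3 CPM with control siRNA (log2 fold change 0.61 ± 0.07, adjusted p = 0.00018), and GPI averaged 534 ± 4.48 CPM in the libraries labelled CCT4 siRNA and 428 ± 12.4 CPM with control siRNA (log2 fold change 0.32 ± 0.06, adjusted p = 0.0054). PGK1 (log2 fold change 0.34 ± 0.07, adjusted p = 0.0039) was also higher. SLC2A3 had 17.6, 19.2 and 17.5 CPM in the libraries labelled CCT4 siRNA, against 11.2, 10.8 and 14.4 CPM with control siRNA (log2 fold change 0.58 ± 0.16, adjusted p = 0.027). Calls of PFKP, ALDOA, PKM and SLC2A3 at log2 fold changes of 0.29 to 0.58 were lost without 1 or more single libraries of the siRNA experiment. ALDOC, at 0.835 ± 0.334 CPM in the libraries labelled CCT4 siRNA and 0.351 ± 0.057 CPM with control siRNA, rested on few counts and lost its call in 14 of 20 alternatives.

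Among the remaining genes, ADM had 322, 322 and 309 CPM in the libraries labelled CCT4 siRNA, against 196, 181 and 190 CPM with control siRNA (log2 fold change 0.75 ± 0.11, adjusted p = 0.00076). DDIT4 had 257, 256 and 247 CPM in the libraries labelled CCT4 siRNA, against 329, 353 and 384 CPM with control siRNA, and its groups lay apart (log2 fold change -0.49 ± 0.16, adjusted p = 0.052). LDHB had 815, 792 and 774 CPM in the libraries labelled CCT4 siRNA, against 580, 589 and 584 CPM with control siRNA (log2 fold change 0.44 ± 0.09, adjusted p = 0.0071), while LDHA did not pass (log2 fold change 0.06 ± 0.10, adjusted p = 0.74). SLC16A3 had 462, 415 and 427 CPM in the libraries labelled CCT4 siRNA, against 297, 302 and 418 CPM with control siRNA (log2 fold change 0.36 ± 0.13, adjusted p = 0.080; 0.54 with adjusted p = 0.0095 without control siRNA replicate 3). The only lower call was PFKFB4, with 20.4, 20.7 and 23.6 CPM in the libraries labelled CCT4 siRNA, against 30.6, 32.5 and 32.3 CPM with control siRNA (log2 fold change -0.56 ± 0.13, adjusted p = 0.011). None of the 4 sensor and alpha subunit genes passed: HIF1A had a log2 fold change of 0.17 ± 0.06 (adjusted p = 0.057), EPAS1 -0.08 ± 0.09, EGLN1 -0.01 ± 0.07 and EGLN3 0.08 ± 0.21. HIF1A had 329, 345 and 346 CPM in the libraries labelled CCT4 siRNA, against 291, 309 and 304 CPM with control siRNA. None of the collagen hydroxylases passed either. Without vehicle replicate 1, HIF1A, NDRG1, ANKRD37, BNIP3, PDK1, P4HA1 and PLOD2 passed as higher (adjusted p of 0.0067 to 0.040) and DDIT4 as lower (adjusted p = 0.013), at log2 fold changes between -0.49 and 0.58. With the siRNA experiment fitted alone, HIF1A, NDRG1, ANKRD37, BNIP3, PDK1 and P4HA1 passed as higher (adjusted p of 0.010 to 0.049). DDIT4 passed there as lower (-0.50, adjusted p = 0.0021), and PLOD2 did not pass. Of the 31 further HIF targets 2 were higher and 2 lower (6.45% each), beside 10.7% of all genes higher and 9.04% lower. EDN1 was the furthest above 0 (31.8 ± 2.69 CPM in the libraries labelled CCT4 siRNA and 9.91 ± 0.88 CPM with control siRNA, log2 fold change 1.68 ± 0.09, adjusted p = 5.5e-07). Of the other lists, 3 HIF regulators were higher and 2 lower, 1 gene of pyruvate handling was higher, 2 pentose phosphate genes were higher and 1 further glycolysis gene was lower.

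The responses to the compound and to the siRNA share no libraries and were compared gene by gene in the same fit, as the compound's log2 fold change minus the siRNA's. The difference passed for 23 of 39 genes, 5 positive and 18 negative, a share of 59.0% beside 59.9% of all genes (27.5% positive and 32.4% negative). ADM, PFKFB3 and PGK1 were called higher in both experiments, PFKFB4 lower in both, and GPI, PFKP and ENO1 lower with anticarin-beta and higher in the libraries labelled CCT4 siRNA. The size of the response differed for ADM (difference 1.64 ± 0.16, adjusted p = 1.7e-06), PFKFB3 (0.74 ± 0.10, adjusted p = 4.4e-05) and PFKFB4 (-1.83 ± 0.20, adjusted p = 6.3e-06), each larger with the compound. For PGK1 the difference was -0.18 ± 0.09 (adjusted p = 0.11) with all libraries, and it passed without vehicle replicate 1 (-0.26, adjusted p = 0.0072), under upper-quartile scaling (-0.27, adjusted p = 0.030) and under library totals (-0.47, adjusted p = 0.00052). Without vehicle replicate 1 the differences of VEGFA (-0.54, adjusted p = 0.0083), NDRG1 (-0.56, adjusted p = 7.6e-06), HK2 (-0.44, adjusted p = 0.00094) and PDK1 (-0.47, adjusted p = 0.0022) also passed. The furthest negative differences were those of EGLN3 (-2.99 ± 0.33, adjusted p = 5.4e-06), DDIT4 (-2.17 ± 0.23, adjusted p = 5.2e-06) and PFKL (-1.84 ± 0.12, adjusted p = 8.0e-08). BNIP3 (-1.23 ± 0.17, adjusted p = 4.0e-05), SLC16A3 (-1.03 ± 0.19, adjusted p = 0.00046), GPI (-1.01 ± 0.09, adjusted p = 1.1e-06) and PLOD2 (0.91 ± 0.19, adjusted p = 0.0011) also differed. The experiments also differ in duration and delivery, which cannot be told apart from the agent here.

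Levels per kilobase of exon place the steps of the pathway beside each other. GAPDH was the highest of the 23 genes from glucose uptake to lactate export in every group, with 1254 CPM per kb with anticarin-beta and 1074 CPM per kb with vehicle, and ENO1 was second, with 592 CPM per kb with anticarin-beta and 666 CPM per kb with vehicle. PFKP was the most abundant phosphofructokinase subunit, with 45.0 CPM per kb with anticarin-beta and 51.2 CPM per kb with vehicle; PFKL had 6.93 CPM per kb with anticarin-beta and 22.2 CPM per kb with vehicle. PFKFB3 exceeded PFKFB4 in every group, with 14.8 CPM per kb against 0.633 CPM per kb with anticarin-beta and 5.81 CPM per kb against 3.32 CPM per kb with vehicle. ALDOC was the lowest of the 23 in every group. All of these are levels over the union of annotated exons, so a gene that uses few of its exons appears lower than it is.

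**Figure D5:**
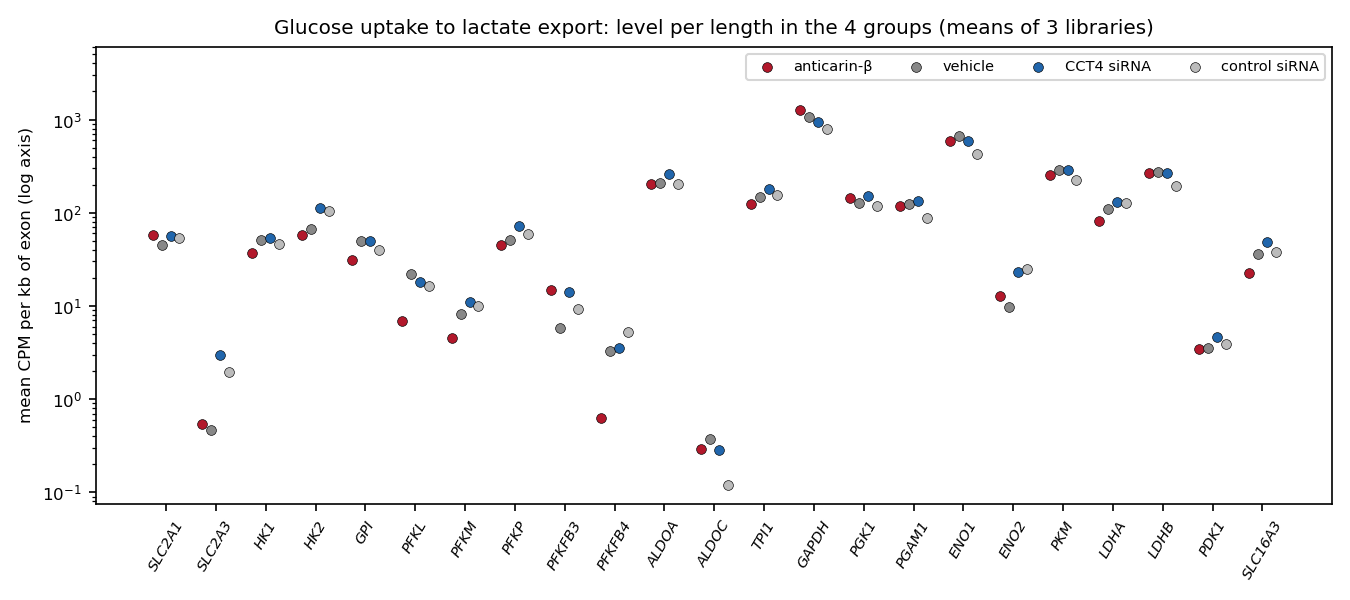
Mean level of 23 genes from glucose uptake to lactate export, in CPM per kb of exon on a log axis, in the order anticarin-beta, vehicle, CCT4 siRNA and control siRNA within each gene (3 libraries a group). GAPDH is highest, at 1254 CPM per kb with anticarin-beta and 1074 CPM per kb with vehicle, and ALDOC is lowest in each group.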

How the data were processed

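RNA-seq libraries were prepared with a stranded TruSeq kit, per the labels' protocols. The authors deposited raw counts per gene in 1 table of 50868 genes, neither normalized nor pooled; the submitters' processing notes name the tools STAR 2.5.2a, Subread and featureCounts 1.5.0 and the build hg38. The sources used here do not give the annotation release, the strand setting or the handling of multi-mapping reads. Of the 39 members, 9 overlap exons of a same-strand gene and 19 those of an opposite-strand gene in GENCODE 29, which held 98.5% of the gene identifiers; their counts could be mixed with the partner's. ELOB and ELOC were matched by identifier under older symbols.

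Counts were tested with edgeR 4.0.16 (R 4.3.3; quasi-likelihood test, two-sided, TMM, filterByExpr, 1 mean per group over all 12 libraries, 8 residual degrees of freedom, Benjamini-Hochberg over 17717 genes, threshold 0.05). Fold changes carry a prior count of 0.125. Each standard error is the log2 fold change over the square root of F. Every adjusted p-value for a gene is from this test unless an alternative is named. The tests were tried on simulated counts with 200 changed genes per comparison. Of 1.5-fold changes, 28.8% were recovered in the compound comparison, 28.1% in the siRNA comparison and 11.9% in the difference. False calls made up 3.12%, 5.47% and 6.9% of calls. Many more genes were called in the data than were changed in the simulation, so these shares need not hold there. A floor of 3 counts corresponds to 0.172 to 0.224 CPM per library, and intervals and floors cover counting error only. Replicates differed by more than sampling noise (chi-square per degree of freedom 8.48 to 26.5), so each counted as 1 sample. The highest values, 24.8 and 26.5, were those of vehicle replicate 1 against its replicates, and vehicle replicates 2 and 3 gave 13.5.

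The members and all lists were chosen with earlier results of these data known. Values in every library were given for up to 4 members per role with the largest change among those called with the compound, for up to 2 members per role with the smallest p in the siRNA comparison, and for the genes of ratios described; of each pathway list up to 4 called genes with the largest change were named. Values in every library of VEGFA and GAPDH, and DLAT and PDK2 from the pathway lists, were added after they were seen. The alternatives tried were scaling by RLE, upper quartile or library totals, the tests of DESeq2 1.42.0 and of limma 3.58.1 (voom), other low-count filters, a threshold of 0.01, each experiment alone, a replicate block and the omission of each library. Promoter sequences are from RefSeq (GRCh38.p14).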

Additional observations from a re-analysis of the deposited data

How the results depend on the processing

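Of the 22 genes called with anticarin-beta, 14 kept their direction and call in all 22 alternatives: EPAS1, ADM, PFKFB3 and PLOD2 higher, and EGLN3, BNIP3, DDIT4, HK1, GPI, PFKL, PFKM, PFKFB4, LDHA and SLC16A3 lower. The same held in 22 alternatives for 7 of 13 calls of the siRNA comparison (ADM, GPI, PFKFB3, PGK1, PGAM1, ENO1 and LDHB) and in 21, the experiments alone not applying, for 19 of 23 differences between the responses. Library totals alone shifted the compound median of all genes to -0.48, against -0.06 under TMM, gave 4 members higher and 25 lower, and reversed SLC2A1 (-0.050), PGK1 (-0.25) and P4HA2 (-0.39); CA9 (-0.36), CA12 (-0.22), SLC2A3 (-0.20), GAPDH (-0.19) and ENO2 (-0.03), positive and not called under TMM, turned negative without passing; in the siRNA comparison it gave 902 genes higher and 2800 lower, with 7 members higher and 2 lower, and values that were not called changed sign for EGLN3, CA12, SLC2A1, HK2 and LDHA (for CA12, ANKRD37 and P4HA2 in the difference). At a threshold of 0.01 the siRNA comparison called 1517 genes (840 higher, 677 lower) and 7 members higher and 0 lower. The siRNA count of lower members was 2 in place of 1, through DDIT4, under RLE, upper-quartile scaling, DESeq2, limma-voom, no filter, a filter at 1 CPM and the experiment alone.

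Leaving out 1 library at a time gave 12478 to 13148 genes called with the compound, with 8 to 9 members higher and 11 to 16 lower. In the siRNA comparison it gave 2202 to 4026 genes (1182 to 2214 higher, 995 to 1812 lower), with 7 to 19 members higher and 1 to 2 lower. The highest member count, 19, was without vehicle replicate 1. That library is in neither siRNA group, but its omission changes the shared spread, the scaling and the genes tested. For the difference it gave 4 to 7 members positive and 17 to 23 negative. The sign of 3 ratios turned: SLC2A3 to SLC2A1 with the compound (-0.17; range -0.302 to 0.0558), BNIP3L to BNIP3 (-0.09; range -0.27 to 0.12, with 0.01 without CCT4 siRNA replicate 2) and EGLN3 to EGLN1 (0.09; range -0.0141 to 0.163) in the siRNA experiment.

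Same-numbered libraries did not deviate together (correlations from -0.0308 to 0.0264), so the numbers were not taken as pairs; a replicate block called 12637 genes with the compound and 2350 in the siRNA comparison (1300 higher, 1050 lower), with 8 members higher and 10 lower for the compound, where HK2, PFKP, PGK1 and ENO1 lost their calls, and 10 higher and 1 lower for the siRNA, where PFKP and ALDOC did. The cause of these changes was not tested.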
